A study of Mus musculus with 4 samples.

Results

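The islands of macroH2A on mouse chromosomes 6 and 13 are described here, before and after muscle differentiation. They comprise all 3211 day 0 islands and all 3428 day 5 islands that lie on these chromosomes, 6639 of the 59489 islands in both lists. Chromosome 6 held 1379 islands at day 0 and 1616 at day 5, and chromosome 13 held 1832 and 1812. The pair was chosen because its ratio of covered length between these 2 lists was the highest of the 19 autosomes. All differences between days below come from the same contrast, so they are given as description, with no test. At the edge of this choice, the ratio of covered length, day 5 over day 0, was 1.1895 on chromosome 13. It was 1.1885 on chromosome 7 and 1.18 on chromosome 19, which were not included.

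The study is chromatin immunoprecipitation followed by sequencing (ChIP-seq) in C2C12, an established mouse myoblast line that fuses into multinucleated myotubes in low serum. The myoblast library was taken at day 0 and the myotube library at day 5 of differentiation medium with horse serum, both with an antibody labelled for macroH2A and no isoform named. Each group is 1 library of 1 cell line with no genetic change or drug in its labels, and the 2 input libraries were not analysed here. An island is a stretch of enriched 600 bp steps joined across short gaps, listed with its number of ChIP reads. Intervals are exact binomial (Clopper-Pearson) or exact Poisson at 95% and cover counting error only. Neighbouring islands share chromatin and a library, so they are not replicates of a condition.

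MacroH2A is a family of histone H2A variants that carry a large macrodomain at the carboxy terminus, outside the nucleosome core. It is known for broad domains over silent chromatin and for its enrichment on the inactive X chromosome, and it also marks some genes that differentiating cells use. The splice form macroH2A1.1 can bind ADP-ribose, a product of NAD+ consumption, and becomes more abundant as myoblasts differentiate. No genome sequence or annotation of the build of the lists (mm9) was used, so regions are given by position and not by gene.

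Chromosome 6 went from 13.4 Mb of covered length in myoblasts to 17.6 Mb in myotubes, and chromosome 13 from 18.6 Mb to 22.1 Mb. The other 17 autosomes together went from 278 Mb to 292 Mb, 1.05 times as much. Relative to them, chromosome 6 stood at 1.248 and chromosome 13 at 1.13. The pair started from different levels, since chromosome 6 was 8.95% covered at day 0 and chromosome 13 was 15.5% covered, against 12.6% of the other autosomes. At day 5 chromosome 6 was 11.8% covered and remained below the other autosomes at 13.3%, while chromosome 13 reached 18.4%. The islands of chromosome 6 held 1010299 reads at day 0 and 1491603 at day 5, and those of chromosome 13 held 1407574 and 1920663. As a share of all autosomal island reads, chromosome 6 went from 4.25% to 5.13% and chromosome 13 from 5.93% to 6.60%.

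Island number and island width contributed differently on the pair. On chromosome 6 the number of islands at day 5 was 1.17 times that at day 0, the highest of the 19 autosomes, and the mean width went from 9.70 kb to 10.9 kb. On chromosome 13 the number was 0.989 times that at day 0, close to 0.983 for the other autosomes, and the mean width went from 10.2 kb to 12.2 kb. The median island went from 6.6 kb to 7.8 kb on chromosome 6 and from 7.2 kb to 8.4 kb on chromosome 13, against 7.2 kb and 7.8 kb elsewhere. Islands over 50 kb numbered 22 and 23 on chromosome 6, and 23 and 36 on chromosome 13, against 443 and 495 on the other autosomes together. Chromosome 6 therefore had both more and wider islands at day 5, and chromosome 13 had wider islands at nearly constant number. A larger mean width was not particular to the pair. It went from 10.8 kb to 11.6 kb on the other autosomes together, from 8.92 kb to 10.2 kb on chromosome 12 and from 9.72 kb to 10.9 kb on chromosome 19.

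To split the increase, islands of both lists were grouped wherever they overlapped by at least 1 bp. A new island had no partner at day 0 and a lost island had none at day 5. A one-to-one pair linked 1 island of each day. A joined group had several day 0 islands under 1 day 5 island, a split group the reverse, and a mixed group several of each. The net changes of these classes add up to the whole increase, which was 4.18 Mb on chromosome 6 and 3.53 Mb on chromosome 13.

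On chromosome 6, new islands added 4.29 Mb and lost islands removed 1.76 Mb. Their balance of 2.53 Mb made up 60.4% of the increase. One-to-one pairs added 0.923 Mb, or 22.1%. Joined groups added 0.884 Mb, split groups changed by -0.229 Mb and mixed groups added 0.0786 Mb, together 17.6%. The balance of new over lost islands was thus the largest part of the increase on chromosome 6 in the full lists. Its share was 47.8% when autosomal covered length was made equal between days. Equal length was reached by dropping only day 5 islands under 69.7 reads per kb. By construction this takes more from new islands, which were less dense. With a density floor raised at day 5 the share of new over lost islands was 44.6%, and with islands within 5 kb merged it was 40.8%.

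New islands of chromosome 13 added 4.06 Mb and lost islands removed 2.57 Mb, a balance of 1.49 Mb or 42.2% of the increase. One-to-one pairs added 1.04 Mb, or 29.5%, and joined, split and mixed groups together 0.994 Mb, or 28.2%. Islands present at both days therefore accounted for 57.8% of the increase on chromosome 13 and 39.6% on chromosome 6. This split depended on how islands were admitted. When autosomal covered length was made equal between days, the balance of new over lost islands on chromosome 13 was 10.1% of the increase. With a density floor raised at day 5 it was -29.7%. Equal length again dropped day 5 islands only, which by construction lowers the share of the less dense new islands. The raised floor kept 1212 of 1832 day 0 islands of chromosome 13 and 981 of 1812 day 5 islands.

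Much length was exchanged on both chromosomes beneath the net increase. At day 5 alone 8.002 Mb of chromosome 6 was covered, against 3.82 Mb at day 0 alone. On chromosome 13 these lengths were 8.63 Mb and 5.10 Mb. The other autosomes together had 106 Mb and 91.8 Mb, so there gained and lost length nearly balanced.

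**Figure D1:**
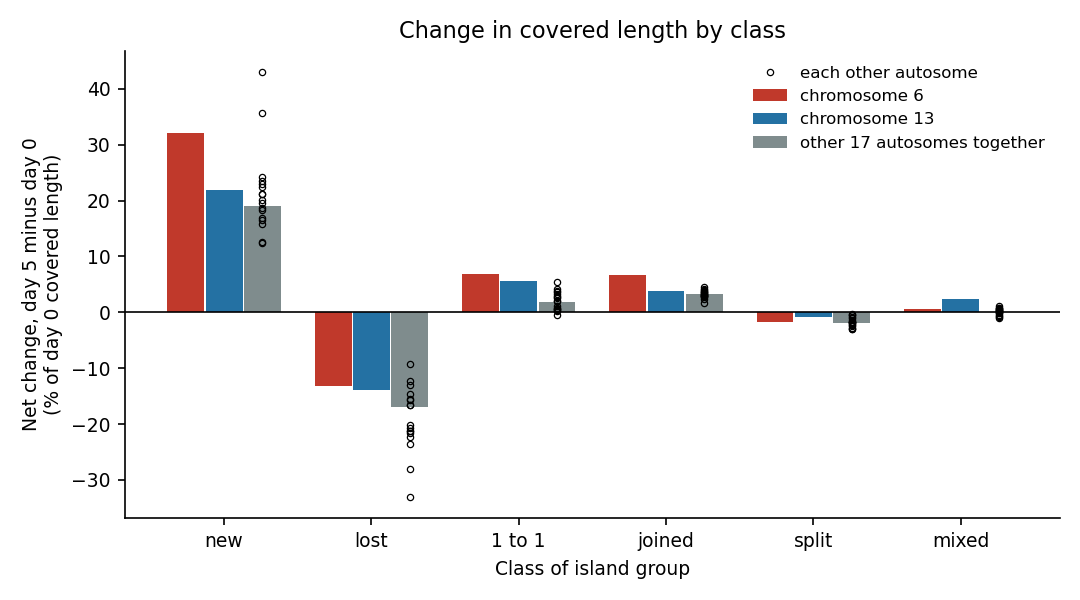
Net change in covered length by class of island group, as a percentage of the day 0 covered length, for chromosome 6, chromosome 13 and the other 17 autosomes together (bars), with each of those 17 as an open circle. Chromosomes 6 and 13 have the 2 highest values for one-to-one pairs, 6.91% and 5.599%, and chromosome 6 also has the highest value for joined groups, 6.61%.

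Set against the day 0 covered length, the pair can be compared with chromosomes of other coverage. New islands added 32.1% on chromosome 6, 21.8% on chromosome 13 and 18.95% on the other autosomes. Among the 19 autosomes chromosome 6 ranked 3 and chromosome 13 ranked 8 in this measure, and the highest value was 43.0% on sparsely covered chromosome 7. The change from lost islands was smaller than elsewhere, at -13.2% on chromosome 6 and -13.8% on chromosome 13 against -17.0%. These were ranks 4 and 5, and chromosomes 15, 11 and 2 lost less (-9.26%, -12.3% and -13.0%). The balance of new over lost was 18.9% on chromosome 6, the highest of the 19, and 8.004% on chromosome 13, which ranked 5, against 1.92% elsewhere. One-to-one pairs gave 6.91% and 5.599% against 1.86%, the 2 highest of the 19, with chromosome 7 close at 5.48%. Joined, split and mixed groups together gave 5.49% and 5.34% against 1.42%, again the 2 highest, though chromosome 19 was close at 5.21%. Of the 26.1 percentage points by which chromosome 6 exceeded the other autosomes, 16.98 came from new over lost islands. The excess of chromosome 13 was 13.8 points, of which 6.09 came from new over lost islands, 3.74 from one-to-one pairs and 3.93 from joined, split and mixed groups.

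By number, new islands took a larger share on chromosome 6 than on chromosome 13. On chromosome 6, 638 of 1616 day 5 islands were new, 39.5% (interval 37.1 to 41.9%), and on chromosome 13, 568 of 1812, 31.3% (29.2 to 33.5%). Over all 19 autosomes 31.3% of day 5 islands were new, and chromosomes 7 and 9 had larger shares than chromosome 6, at 47.4% and 41.2%. Lost islands numbered 301 of 1379 on chromosome 6, 21.8% (19.7 to 24.1%), and 430 of 1832 on chromosome 13, 23.5% (21.5 to 25.5%). Over all 19 autosomes 27.5% of day 0 islands were lost, and chromosome 11 had a smaller share than chromosome 6, at 21.1%.

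New islands on the pair resembled new islands elsewhere. Their median width was 6.0 kb on chromosome 6, on chromosome 13 and on the other autosomes. They were narrower than the day 5 islands with a partner, whose median was 9.6 kb on both chromosomes. New islands were also less dense, at a median of 76.9 reads per kb on chromosome 6 and 77.2 on chromosome 13, against 83.1 and 82.8 for islands with a partner. On the other autosomes these medians were 77.9 and 82.8. Of the new islands, 37.8% on chromosome 6 and 35.6% on chromosome 13 lay below 74.5 reads per kb, the lower quartile of density in the day 5 list, as did 35.4% elsewhere. The nearest day 0 island lay at a median distance of 17.4 kb on both chromosomes, against 15 kb elsewhere. Within 10 kb of a day 0 island lay 237 new islands on chromosome 6 (37.1%) and 197 on chromosome 13 (34.7%), against 40.1% elsewhere. Beyond 100 kb lay 75 (11.8%) and 82 (14.4%), against 13.5%. In 1-Mb windows with no day 0 island lay 13 new islands of chromosome 6 (2.04%) and 4 of chromosome 13 (0.704%), against 2.97% elsewhere, so such islands were few on all these chromosomes.

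Lost islands had the same median width of 5.4 kb on chromosome 6, on chromosome 13 and on the other autosomes. The share of wide ones differed. Those over 10 kb numbered 20 of 301 on chromosome 6 and 37 of 430 on chromosome 13, against 1009 of 7223 on the other autosomes. They held 16.9% and 19.1% of the lost-island length, against 29.8% on the other autosomes, which were not compared singly here. New islands over 10 kb numbered 104 on chromosome 6 and 107 on chromosome 13, with 31.5% and 36.7% of the new-island length against 31.9% elsewhere. Wide gains were thus as frequent as elsewhere by length, while wide losses held less of the length.

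The new islands with the most reads were wide. On chromosome 6 the island from 120586801 to 120615000 was 28.2 kb wide with 2254 reads, or 79.9 reads per kb (76.7 to 83.3). Between 129158401 and 129179400 an island of 21.0 kb held 1948 reads, a density of 92.8 (88.7 to 97.0). Between 12912601 and 12936600 the density was 73.1 (69.7 to 76.6) with 1755 reads. These densities bracket the chromosome's median of 80.3 reads per kb over all day 5 islands. For chromosome 13, the island from 77061001 to 77094000 was 33.0 kb wide, with 3010 reads and a density of 91.2 (88.0 to 94.5). It was followed by the islands from 110429401 to 110457600, with 2368 reads at 84.0 (80.6 to 87.4), and from 31332601 to 31356000, with 2082 reads at 89.0 (85.2 to 92.9). All 3 were above the chromosome's median of 80.8. Among lost islands, the most reads on chromosome 6 were from 40003801 to 40034400 (30.6 kb, 2216 reads) and from 53588401 to 53610600 (22.2 kb, 1463 reads). Those of chromosome 13 were from 102356401 to 102388800 (32.4 kb, 2297 reads) and from 29286601 to 29303400 (16.8 kb, 1294 reads). A missing island means that no listed island overlapped, not that macroH2A was absent.

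Islands kept one-to-one became wider more often than narrower on both chromosomes. On chromosome 6, 304 of 508 pairs were wider at day 5 (59.8%, 55.4 to 64.1%), 169 were narrower and 35 had the same width. On chromosome 13, 389 of 674 were wider (57.7%, 53.9 to 61.5%), 229 were narrower and 56 the same. Over all 19 autosomes 50.5% of pairs were wider and 40.1% narrower. The median change was 1.2 kb on both chromosomes, which is 2 steps of the 600 bp grid, and 0.0 kb on the other autosomes. The widening was spread over many pairs, since the 10 that widened most made up 14.8% of all widening on chromosome 6 and 11.9% on chromosome 13. Changes of at least 5 kb were wider in 112 and narrower in 40 pairs of chromosome 6, and wider in 135 and narrower in 60 pairs of chromosome 13. On the other autosomes 15.1% of pairs widened and 10.99% narrowed by as much, against 22.0% and 7.87% on chromosome 6 and 20.0% and 8.90% on chromosome 13.

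**Figure D2:**
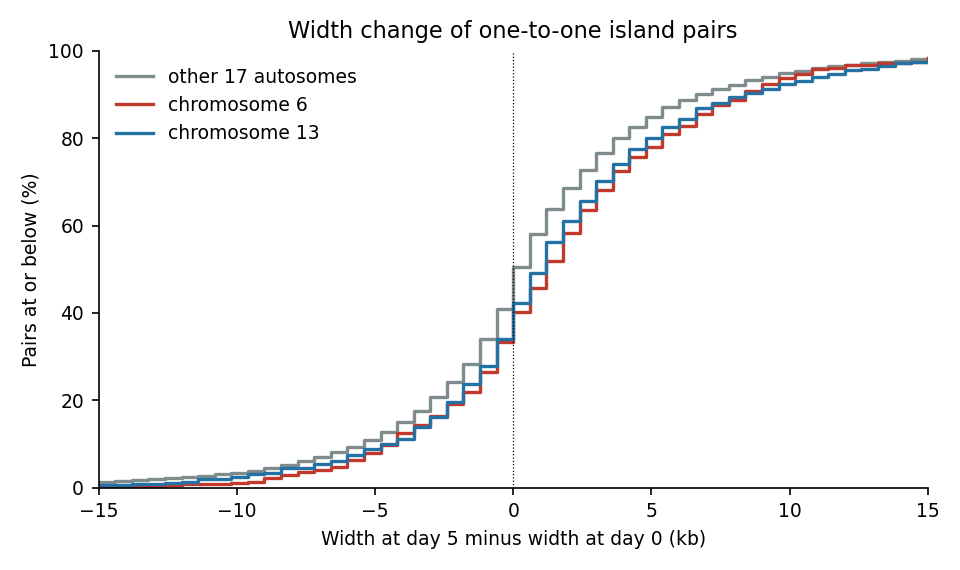
Cumulative share of one-to-one island pairs (y axis, percent) by width at day 5 minus width at day 0 (x axis, kb, drawn from -15 to 15) on chromosome 6, chromosome 13 and the other 17 autosomes. Both chromosomes lie below the other autosomes over most of the range, with narrower pairs at 33.3% and 34.0% against 40.9%.

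The pairs that gained most length began from myoblast islands of 1.2 to 17.4 kb, against median day 0 widths of one-to-one pairs of 6.6 kb on chromosome 6 and 7.2 kb on chromosome 13. On chromosome 6 a 7.2 kb island from 5505601 to 5512800 with 448 reads lay within a 40.2 kb myotube island from 5500201 to 5540400 with 3224 reads. Its density went from 62.2 to 80.2 reads per kb. The densities of named islands are unscaled and averaged over the island of each day. Where both lists had an island, the genome median ratio of density, day 5 over day 0, was 1.14. Next were pairs whose day 5 islands ran from 137092201 to 137128200 (6.6 kb to 36.0 kb) and from 98469601 to 98512200 (17.4 kb to 42.6 kb). A 3.6 kb island of chromosome 13 from 16923601 to 16927200 with 266 reads lay within a 39.0 kb myotube island from 16911001 to 16950000 with 3517 reads, and its density went from 73.9 to 90.2 reads per kb. The next 2 had day 5 islands from 56104201 to 56140800 (7.8 kb to 36.6 kb) and from 16300201 to 16326000 (1.2 kb to 25.8 kb). The smallest of these day 0 islands held 130 reads at 108 reads per kb, above the 77.1 reads per kb of the wide island that replaced it.

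Joining outnumbered splitting on both chromosomes. On chromosome 6, 293 day 0 islands were joined into 129 myotube islands, and 75 day 0 islands were split into 165. On chromosome 13, 350 were joined into 151 and 84 were split into 182. Joined groups per split group came to 1.72 and 1.80, against 1.403 on the other autosomes. Most joined islands combined 2 day 0 islands, 101 of 129 on chromosome 6 and 117 of 151 on chromosome 13, and the most combined were 5 and 7. Of the length gained in joined groups, 0.610 Mb on chromosome 6 (54.1%) filled the gaps between day 0 islands and 0.518 Mb extended their outer flanks. The gaps of chromosome 13 took 0.630 Mb (59.9%) and the flanks 0.422 Mb, close to the 59.3% in gaps elsewhere. The gaps filled averaged 3.72 kb on chromosome 6 and 3.17 kb on chromosome 13, against 3.18 kb.

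The joined islands that gained most combined several myoblast islands each. The chromosome 6 myotube island from 17100001 to 17203200 spanned 103 kb over 4 myoblast islands of 70.2 kb in all. Its density was 117 reads per kb (114.8 to 119.0), against 88.1 over the 4 myoblast islands, both unscaled. Those from 41001601 to 41043600 and from 115180201 to 115217400 each joined 2 islands, going from 15 kb to 42.0 kb and from 10.2 kb to 37.2 kb. The chromosome 13 island from 31113001 to 31178400 joined 3 islands and went from 25.2 kb to 65.4 kb, with 38.4 kb in filled gaps. The islands from 30638401 to 30688200 and from 109525801 to 109577400 also joined 3 each, going from 19.8 kb to 49.8 kb and from 27.0 kb to 51.6 kb.

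The widest islands of each day were interrupted at the other day. Choosing the widest island of a list favours a narrower or broken counterpart in the other list. The widest myotube island of chromosome 13, from 98188801 to 98422800, was 234 kb wide and held 22475 reads. At day 0 it corresponded to 4 islands that already covered 97.4% of it. The widest myoblast island there, from 60384001 to 60489600 (106 kb, 9199 reads), was 96.0% covered at day 5 by 2 islands. On chromosome 6 the widest myoblast island, from 100011601 to 100162800, was 151 kb wide with 16018 reads and was 98.8% covered by 2 islands at day 5. The widest myotube island, from 38918401 to 39024000 (106 kb, 9542 reads), had 4 day 0 islands over 84.1% of it.

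The increase was then located in windows of 1 Mb, counting a window as higher or lower when covered length differed by at least 50 kb. On chromosome 6, 39 of 150 windows (26%) were higher at day 5 and 3 (2.00%) were lower. On chromosome 13, 32 of 121 (26.4%) were higher and 9 (7.44%) lower. Over all 19 autosomes 16.1% of windows were higher and 9.40% lower. In share of lower windows chromosome 6 ranked 19 of 19, below the 3.92% of chromosome 7. A window with less than 50 kb at day 0 cannot be lower by 50 kb, so sparse coverage limits this share. On chromosome 6, 43 of 150 windows had no day 0 island and 32 had up to 50 kb. These numbers were 17 and 23 of 121 on chromosome 13, and 497 and 489 of 2207 on the other autosomes. In share of higher windows chromosome 13 ranked 2 and chromosome 6 ranked 3, below the 28.8% of densely covered chromosome 15 and close to the 25.8% of chromosome 19 and 24.7% of chromosome 2. Chromosome 19 also had fewer lower windows (6.45%) than chromosome 13. At 100 kb or more, 17 windows of chromosome 6 were higher and 0 lower, and on chromosome 13, 15 were higher and 5 lower. The backgrounds at that size were 6.17% higher and 3.27% lower. Counting any difference, 81 windows of chromosome 6 and 80 of chromosome 13 were higher and 31 and 27 lower, against 48.5% higher and 33.0% lower over all 19 autosomes. By these counts, within that limit, chromosome 6 had many higher windows and few lower ones, while chromosome 13 had both.

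The increase on chromosome 6 was spread along its length. The 10 windows that gained most held 30.5% of the length gained over all its higher windows, and 19 windows were needed to reach 50% of it. The top 10 of chromosome 13 held 42.1% and 14 windows were needed. Both measures depend on how many windows a chromosome has, 150 on chromosome 6 and 121 on chromosome 13. As a share of windows, 50% of the gained length took 12.7% on chromosome 6 and 11.6% on chromosome 13. On the other autosomes pooled it took 8.56%. Among the other 17 autosomes the share of the top 10 ran from 30.2% on chromosome 2 to 61.3% on chromosome 4, with a median of 47.0%. Higher windows summed to 4.74 Mb and lower windows to -0.553 Mb on chromosome 6, an offset of 11.7%. On chromosome 13 these sums were 4.83 Mb and -1.30 Mb, an offset of 27.0%. On the other autosomes 68.2% of the gained length was offset in this way.

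**Figure D3:**
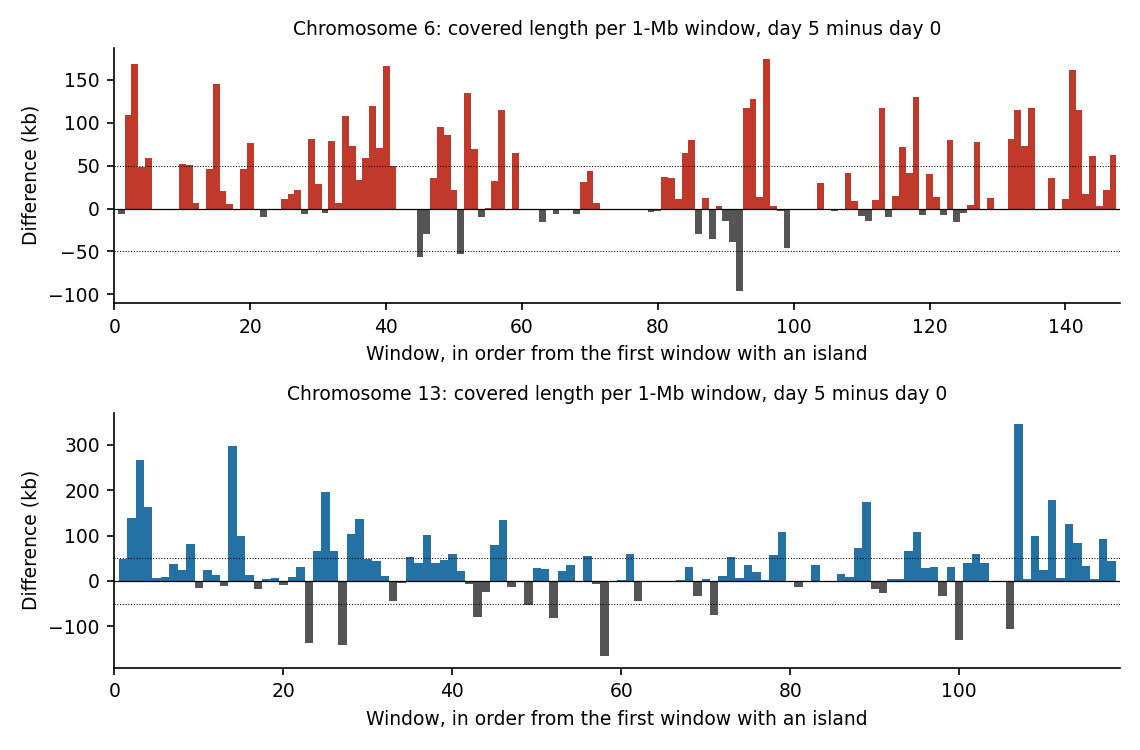
Covered length at day 5 minus day 0 in each 1-Mb window (y axis, kb) of chromosomes 6 and 13, in order from the first window with an island, with dotted lines at 50 kb above and under 0. Higher windows are coloured and lower ones grey. Chromosome 6 has 3 windows at or beyond the lower line and chromosome 13 has 9.

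By position, chromosome 6 was more covered at day 5 in every part and chromosome 13 mainly toward its ends. On chromosome 6 the first 50 Mb held 3.11 Mb at day 0 and 4.79 Mb at day 5, a ratio of 1.54. The ratio was 1.18 between 50 and 100 Mb, and 1.33 beyond 100 Mb. New islands were evenly placed over these parts, at 218, 203 and 217, while lost islands numbered 74, 116 and 111. Chromosome 13 had ratios of 1.29 from 0 to 41 Mb, 1.03 from 41 to 81 Mb and 1.23 from 81 Mb on, so the middle part held 5.73% of the increase. In that middle part 149 new and 155 lost islands nearly balanced, against 233 and 144 before it and 186 and 131 after it. Of the other 17 autosomes, 5 also had their lowest ratio in the middle part, and all 17 summed had ratios of 1.04, 1.07 and 1.04.

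Runs of at least 5 adjacent windows that were all higher at day 5 held 1.88 Mb of added length on chromosome 6. All its higher windows together gained 4.74 Mb. On chromosome 13 runs held 3.05 of 4.83 Mb, and on the other autosomes 14.9 of 45.3 Mb. As shares of the net increase these lengths were 45.0%, 86.5% and 103%. Lower windows reduce that net increase most on the other autosomes, so the net shares are not like measures. Chromosome 6 had 4 such runs covering 28 windows. The stretch of 34 to 44 Mb had 1369 kb covered at day 0 and 2134 kb at day 5. That of 142 to 150 Mb had 1148 and 1601 kb, that of 95 to 100 Mb had 642 and 1077 kb, and that of 83 to 88 Mb had 876 and 1104 kb. Chromosome 13 had 6 runs covering 47 windows, 38.8% of its windows, against 18.7% on chromosome 6 and 12.9% on the other autosomes. The longest, 12 windows between 109 and 121 Mb at the distal end, had 2125 kb at day 0 and 3163 kb at day 5. Near the other end, 9 windows between 3 and 12 Mb had 1027 and 1801 kb. The other 4 ran from 30 to 35, 37 to 44, 74 to 82 and 94 to 100 Mb, with ratios of 1.18, 1.19, 1.71 and 1.12. Among runs of windows with no increase, the longest of chromosome 6 were from 62 to 71 Mb and from 74 to 83 Mb, where 6 and 7 of 9 windows had no island at either day. The latter ended in a window with 217 kb at day 0 and 214 kb at day 5. On chromosome 13 the longest was from 64 to 69 Mb, where 4 of 5 had none. Most windows in these stretches were therefore empty of islands at both days.

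The windows that gained most differed in how they gained, and each is named here by its start. On chromosome 6 the window at 98 Mb had 208 kb at day 0 and 382 kb at day 5, with 129 kb of its 174 kb net gain in groups present at both days. The window at 17 Mb had 237 and 382 kb, with 124 kb of 145 kb in such groups, while its islands went from 23 to 17 in number. In the window at 42 Mb, by contrast, islands went from 13 to 25, and new ones held 116 kb of the 167 kb gained. At 5 Mb there were 10 islands over 87.6 kb in myoblasts and 22 over 256 kb in myotubes, with 101 kb in new islands. At 143 Mb covered length was 305 kb at day 0 and 467 kb at day 5, with 121 kb in new and 15.6 kb in lost islands.

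The 3 windows of chromosome 13 with the largest gains combined both routes. At 109 Mb, 178 kb came in new islands and 178 kb in groups present at both days, with 10.2 kb lost. At 16 Mb these were 164, 154 and 21.0 kb, and at 5 Mb they were 104, 167 and 4.8 kb. The window at 27 Mb had 51.6 kb in 6 islands at day 0 and 247 kb in 25 at day 5, with 156 kb in new islands and 0 kb lost. At 113 Mb the islands fell from 32 to 27 in number while covered length was 276 kb at day 0 and 454 kb at day 5, with 139 kb in groups present at both days.

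Windows with less covered length at day 5 were found on both chromosomes. On chromosome 6 the largest decrease was at 94 Mb, with 305 kb at day 0 and 208 kb at day 5, directly before a run of higher windows. The window at 47 Mb had 91.8 and 34.8 kb, and that at 53 Mb had 478 and 425 kb. On chromosome 13 the window at 60 Mb, which holds the widest myoblast island, had 541 kb at day 0 and 375 kb at day 5. The window at 29 Mb had 268 and 126 kb, with 115 kb in lost islands. That at 25 Mb had 241 and 103 kb, with 145 kb in lost islands. Chromosome 13 thus carried opposite changes within a few Mb, since the window at 27 Mb lies between these.

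The increase reached windows of every level of day 0 coverage. Windows with up to 50 kb at day 0 were 2.35 times as covered at day 5 on chromosome 6 and 2.07 times on chromosome 13, against 1.66 on the other autosomes. Windows with 50 to 200 kb had ratios of 1.44, 1.29 and 1.13. Windows over 200 kb had ratios of 1.12 on both chromosomes, where 18 of 24 and 27 of 35 were higher, against 0.980 elsewhere, where 258 of 541 were higher. Sorting windows by day 0 coverage favours higher ratios in thin windows and lower ratios in full ones, so the comparison is with the other autosomes in the same class. Windows over 200 kb held 44.7% of the increase on chromosome 13 and 20.8% on chromosome 6, where windows of 50 to 200 kb held 55.7%. Windows with no day 0 island held 2.41% of the increase on chromosome 6 and 1.45% on chromosome 13, against 10.9% on the other autosomes. The increase is net, and windows over 200 kb made up -26.4% of it on the other autosomes, so these shares are not like measures. In length they were 0.101, 0.051 and 1.57 Mb, beside day 0 covered lengths of 13.4, 18.6 and 278 Mb. Windows with no day 0 island can only gain, by construction.

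**Figure D4:**
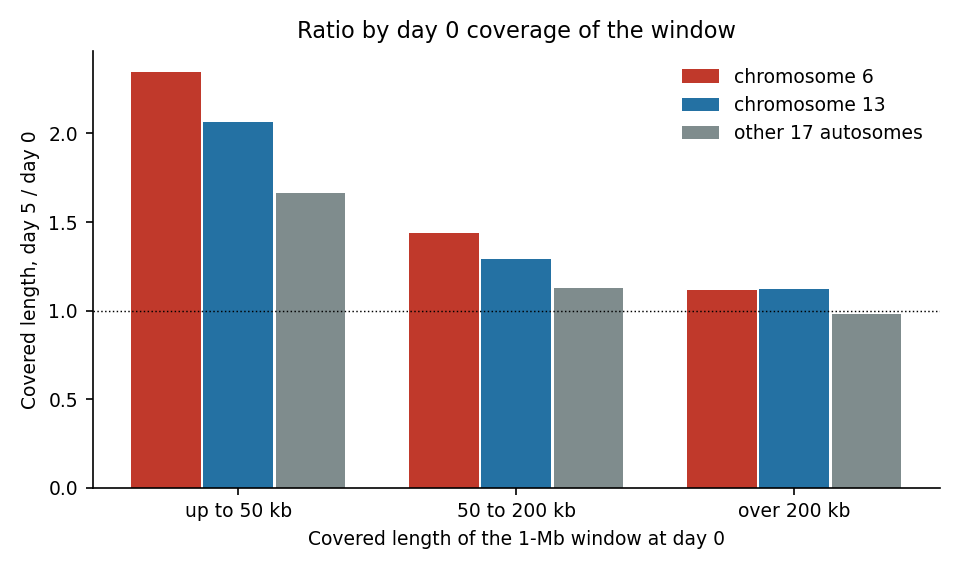
Ratio of covered length, day 5 over day 0 (y axis), for 1-Mb windows grouped by their covered length at day 0 (x axis), on chromosome 6, chromosome 13 and the other 17 autosomes. Both chromosomes are above the other autosomes in each class, and over 200 kb they stand at 1.12 against 0.980.

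Read density is a second readout of the same lists. Where both lists had an island, density at day 5 was divided by density at day 0 at each grid position, put on the log2 scale, and the genome median of 0.19 was subtracted. The median of this relative log2 ratio was 0.021 on chromosome 6 (quartiles -0.13 and 0.15) over 9.55 Mb covered at both days. On chromosome 13 it was 0.027 (quartiles -0.10 and 0.15) over 13.5 Mb. These were ranks 3 and 1 of the 19 autosomes, the others running from -0.026 on chromosome 11 to 0.025 on chromosome 15. The median island density went from 72.2 to 80.3 reads per kb on chromosome 6 and from 73.0 to 80.8 on chromosome 13, ratios of 1.11 as on the other autosomes. Before subtraction the median log2 ratio where both lists had an island was 0.21 on both chromosomes and 0.19 on the other autosomes. That value includes sequencing depth, which is unknown. Set against the other autosomes, covered length thus stood further apart on these chromosomes than density within islands did.

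Across the 19 autosomes, the relative density ratio and the ratio of covered length varied together (Pearson 0.62, Spearman 0.62). Over the 17 autosomes without chromosomes 6 and 13 these values were 0.44 and 0.49. The points share both libraries and the caller's threshold, and both measures come from the same reads. Input reads were not analysed here, and the part of DNA amount in either measure was not tested.

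**Figure D5:**
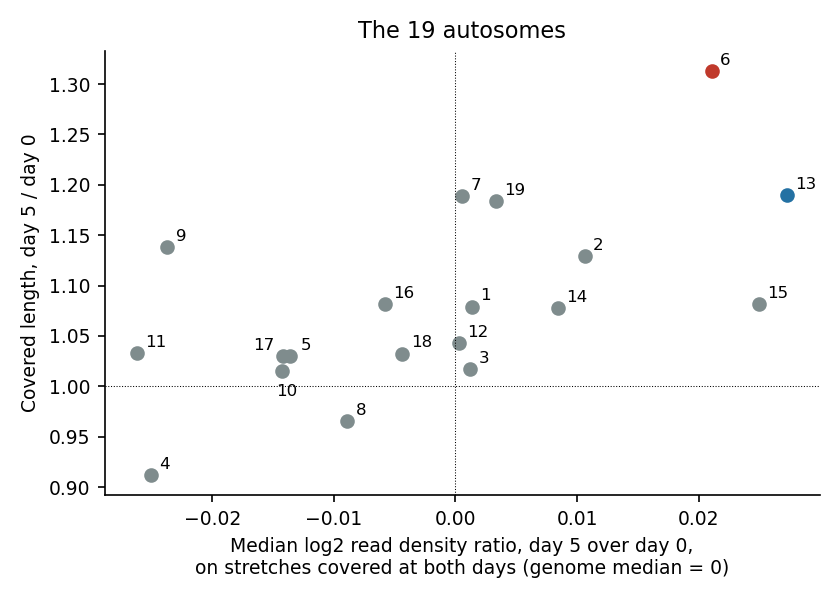
Ratio of covered length, day 5 over day 0 (y axis), against the median log2 ratio of read density on stretches covered at both days, relative to the genome median (x axis), for the 19 autosomes, numbered. Each stretch carries the mean density of its whole island at each day. Chromosome 6 lies highest at 1.31, and chromosomes 6 and 13 have 2 of the 3 highest density ratios, 0.021 and 0.027.

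The size of the increase depended on the density required of an island, while the excess over the other autosomes depended on it less. With a floor of 70 reads per kb at day 0, raised to 79.7 at day 5 by the genome median density ratio, chromosome 6 stood at 1.19, chromosome 13 at 1.08 and the other autosomes at 0.951. Relative to the others chromosome 6 was then at 1.26, rank 1 of 19, and chromosome 13 at 1.14, rank 3, so the pair was no longer the top 2. That floor kept 1212 day 0 islands and 981 day 5 islands of chromosome 13. The balance of new over lost islands there turned negative, at -2.50% of day 0 covered length against -7.09% elsewhere. On chromosome 6 it remained positive at 8.64%. With 70 reads per kb at both days the ratios were 1.82, 1.56 and 1.38, and chromosome 6 ranked 2 and chromosome 13 ranked 6 of 19. The excess of new over lost islands on chromosome 6 was then 31.7 points, against 16.98 in the full lists.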

How the data were processed

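MacroH2A ChIP-seq was done in 1 myoblast and 1 myotube library, with no replicates and hence no test between days. In the lists deposited by the authors, each island has a position and the unscaled count of its reads. The names of those lists record windows of 600 bp, gaps up to 1200 bp and an FDR of 0.01. CASAVA 1.4, SICER 1.1, MACS 1.4.2, Bowtie2 2.2.6 and build mm9 (NCBIM37) are listed, without their roles, per the submitters' processing notes. Use of input and handling of duplicates are not given in the sources used here, and sequencing depth is unknown: the lists hold 24365482 and 29619426 island reads.

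Positions count from 1. Islands were linked at 1 bp of overlap, and covered length was summed in windows of 1 Mb. Rows may be missing from either list. The grouping code was tested on simulated data. The members, measures and the rule for named regions were chosen with earlier results of these data known. That rule took, per chromosome, the 5 windows gaining and 3 losing most, 3 new, 3 joined and 3 paired islands, 2 lost islands, the widest islands, and runs of at least 5 windows. Alternatives were filters, merging, density floors, equal length, overlap, read shares and window size. Tables were handled in pandas 2.3.3 and NumPy 2.4.6 under Python 3.11.15, intervals came from SciPy 1.17.1, and plots from matplotlib 3.10.9.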

Additional observations from a re-analysis of the deposited data

How the results depend on the processing

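Of 138 recomputed values 79 stayed within tolerance, which was 7.19% (chromosome 6) and 6.49% (chromosome 13) for ratios, the exact interval for percentages and 1.5 times for counts of windows. The ratio tolerance was set from island counts, and shares of length were treated as proportions of islands or windows. These tolerances are therefore a convention for sorting values and do not measure the spread of covered length. The ratio relative to the other autosomes ran from 1.23 to 1.32 on chromosome 6 and from 1.12 to 1.15 on chromosome 13 over its 8 alternatives. Neither chromosome had an island denser than 400 reads per kb, so dropping such islands removed none of theirs. Values outside the tolerance follow in the order chromosome 6, chromosome 13 where both are given, and their cause was not tested.

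With the floor of 70 reads per kb raised at day 5, covered length ratios were 1.19 and 1.08. New over lost islands made 44.6% and, reversed, -29.7% of the increase. One-to-one pairs made 30.6% and 58.7%, and 46.9% and 38.4% of day 5 islands were new. Higher windows numbered 18 and 19, lower ones 7 on chromosome 6, and the top 10 held 43.0% and 52.4%. With the floor unscaled the ratios were 1.82 and 1.56, new over lost 73.3% and 62.9%, one-to-one pairs 17.5% and 21.0% and new islands 55.9% and 46.9%, with 51 higher and 3 lower windows on chromosome 13. By construction this floor removes more of the less dense day 0 list. At equal covered length the chromosome 6 ratio was 1.20, with new over lost at 47.8% and 10.1%. One-to-one pairs made 24.7% and 41.8%, with 36.5% new islands and 6 lower windows on chromosome 6. This setting dropped day 5 islands only, which by construction takes more from the less dense new ones. By share of reads the chromosome 6 ratio was 1.21. Without the 25% of islands with fewest reads, one-to-one pairs made 29.6% and 22.2%, new islands 42.2% and 34.7%, and new over lost 54.9% on chromosome 13. With islands of at least 3 kb, new over lost was 45.8% and one-to-one pairs 26.6% on chromosome 13. Merging within 5 kb gave 40.8% and 35.1% for new over lost, 28.1% and 22.3% for one-to-one pairs, and 34.3% new islands on chromosome 13. Requiring 50% overlap gave 42.9% and 36.0% new islands, and 46.8% for new over lost on chromosome 13. Windows shifted by 500 kb left 1 lower window on chromosome 6. Windows of 500 kb gave the top 10 a share of 22.5% and 26.8%, and windows of 2 Mb 44.3% and 57.0%, as their number changes by construction. Counting any difference gave 81 and 80 higher and 31 and 27 lower windows, and at least 100 kb gave 17 and 15 higher and 0 and 5 lower. No paired analysis was possible because each day has 1 library and the labels share no replicate numbers, and for the same reason no library could be left out.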
